A study of Mus musculus with 6 samples.

Results

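The genes that copy DNA were measured by RNA sequencing in mouse embryos of embryonic day 7.5. The 43 members, chosen by gene symbol, cover origin licensing, the helicase, the polymerases, the clamp and deoxynucleotide supply. All 43 were found among the 21877 gene symbols of the deposited table, and all 43 were among the 10104 genes that reached 1 RPKM (read density over the exons, corrected for their length and for library depth) in at least 3 libraries. The 3 wild-type libraries (WT 1, 2 and 3) were compared with 3 libraries from Rnf111 S254D knock-in embryos (KI 1, 2 and 3). Rnf111 encodes a ubiquitin ligase of the Nodal and TGF-beta pathway. The labels do not state zygosity, strain, sex or how many embryos went into each library. The p-values therefore cover only the spread between these libraries, which may be technical.

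Replication is prepared in G1, when the origin recognition complex (ORC), Cdc6 and Cdt1 load the ring-shaped MCM helicase onto origins. In S phase Cdc45 and the GINS complex join MCM to form the active helicase, primase and polymerase alpha start each strand, and polymerases delta and epsilon extend it, held by the sliding clamp PCNA. Embryos at and after gastrulation divide fast, and many of these genes are known targets of E2F transcription factors, which switch them on toward S phase.

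WT 3 and KI 2 stood apart from the other libraries. The depth implied by the values was lowest in KI 2 (9763000 reads) and highest in WT 3 (13559000 reads). Over all tested genes the median ratio of a library to the median of the other 5 was 0.759 in WT 3 and 0.932 in KI 2. Of 9 visceral endoderm and yolk sac markers, the summed level in KI 2 was 12.8 RPKM, with Apoa4 and Amn at 0. The sum was 1249 in WT 3 and 452 to 673 in the other libraries. In WT 3, 6 of the 9 were above 1.5 times the median of the other 5 libraries and 2 below 0.67 of it. The 7 heart markers summed to 104 RPKM in KI 2 and to 341 to 426 elsewhere, and the 6 primitive blood markers to 1767 in WT 3 and 2047 to 2626 elsewhere. The summed level of 4 Y-linked genes was 41.05, 42.5 and 62.0 RPKM in WT and 7.29, 50.9 and 0 in KI, so genotype and sex are partly confounded here. The trophoblast genes Prl3d1 and Tpbpa and 4 decidual granzyme genes were listed at 0 in all 6 libraries. Others of the same trophoblast and decidua lists were not: Cdx2 ran from 1.96 to 7.40 RPKM, Hand1 from 1.80 to 6.18 and Des from 1.67 to 7.42. Cdx2 was lowest in WT 3 (1.96) and KI 2 (2.04), and Hand1 in KI 2. Elf5, Gcm1, Prl8a2 and Hand2 stayed below 1 RPKM. The epiblast and mesendoderm genes Pou5f1, Nanog and Eomes did not exceed 0.268 RPKM in any library. T, a primitive streak gene, was at 6.24 to 12.5 (these 4 genes were chosen after their values were seen). Whether these marker levels match the labelled day was not tested, nor was the part of tissue makeup, stage, sex or RNA quality in the results. In bulk RNA, fewer cells of a type and less RNA per cell cannot be told apart.

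No member of the replication set passed the threshold between genotypes, which was an adjusted p under 0.05 by limma with Benjamini-Hochberg adjustment over all tested genes. None of the 43 passed, where 0% of all 10104 tested genes did. At an unadjusted p under 0.05 there were also 0 members, against 1.2% of all tested genes, and limma-voom on recovered reads likewise called 0 of 42 members tested and 0 genes (unadjusted p under 0.05 in 0 members and 0.924% of genes). The median KI minus WT difference over the members was 0.07 on the log2(RPKM + 1) scale, against 0.05 over all tested genes. It was positive for 25 members and negative for 18, and 58.8% of all tested genes were positive. Every difference lay between -0.21 (Pole2) and 0.56 (Mcm5). The 95% interval stayed within 1 log2 unit, or 2-fold, of no difference for 31 of 43 members and for 81.8% of all tested genes.

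**Figure D1:**
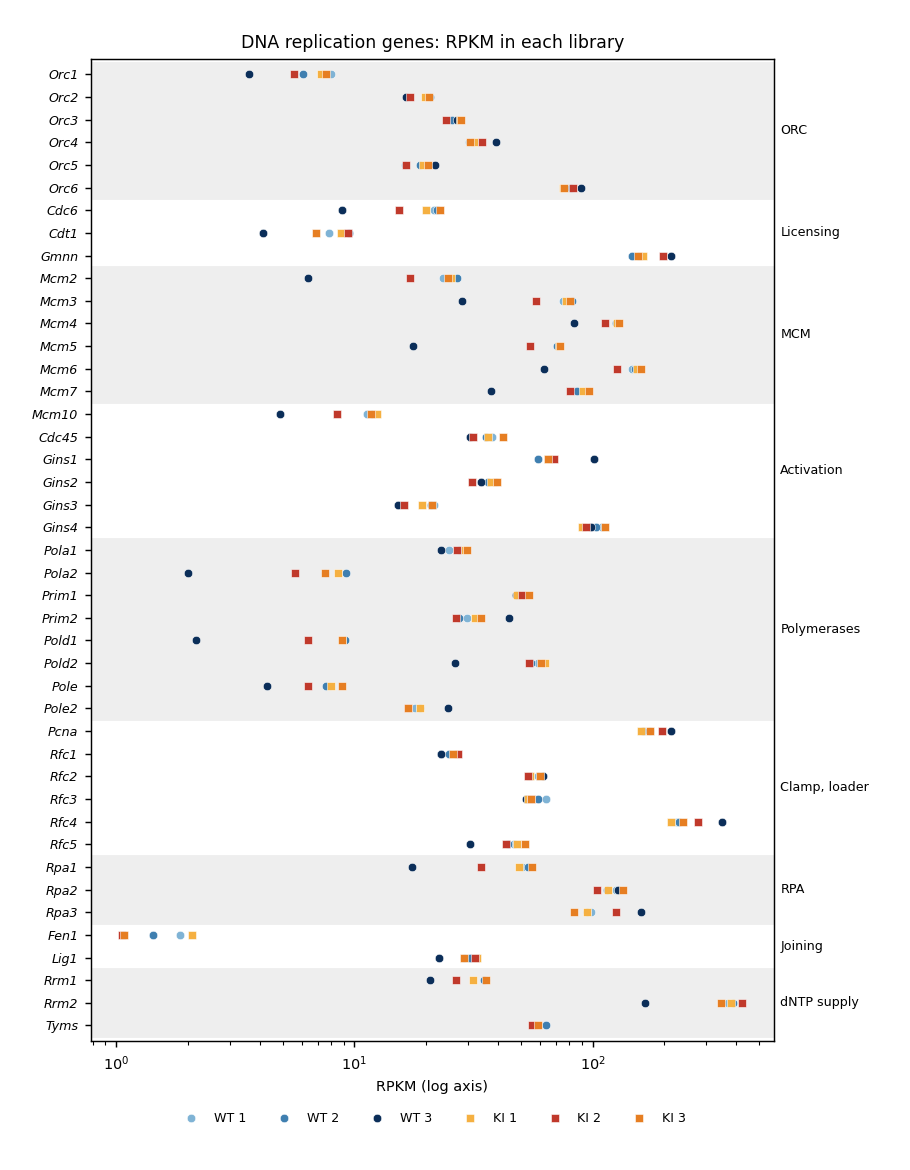
RPKM on a log axis for the 43 DNA replication genes, grouped by role, with a circle for each WT and a square for each KI library. WT 3 (dark blue) lies far to the left of the other libraries for genes such as Mcm2, Mcm5, Pola2 and Pold1 and to the right for Rpa3, Gins1 and Rfc4, while the other libraries mostly lie close together.

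Levels of the members differed widely in every library, from a mean of 1.43 RPKM for Fen1 to 347 for Rrm2. The reads behind a value ran from 25 for Fen1 in KI 2 to 13713 for Rrm2 in its highest library, so counting error weighs most on the lowest members. Its part in the spread between libraries was not tested. Over all 6 libraries the median coefficient of variation was 16.4% for the members and 22.3% for all tested genes. With WT 3 and KI 2 left out it was 5.54% and 10.0%. In that setting the 4 remaining libraries gave member differences between -0.17 (Rfc3) and 0.20 (Prim2). All 43 intervals lay within 2-fold of no change, as did those of 9852 of all 10104 tested genes. WT 3 and KI 2 were the libraries that stood apart in these same data, so a smaller spread without them was likely in advance.

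The origin recognition complex marks origins and helps to load the helicase. The KI minus WT differences of its 6 genes ran from -0.09 to 0.22, with 0 called. Orc6, the smallest and most abundant subunit transcript, was at 78.4, 81.2 and 89.7 RPKM in WT 1, 2 and 3 and at 75.5, 82.7 and 76.2 in KI 1, 2 and 3. The groups overlapped, with a difference of -0.09 (SE 0.13, limma adjusted p = 0.999). Orc1, the ATPase subunit that cycles with cell division, was the lowest of the 6, at 7.98, 6.08 and 3.62 RPKM in WT and 7.22, 5.59 and 7.58 in KI. Its lowest value was in WT 3 and its highest in WT 1, so the wild-type range spanned the whole KI range. The order Orc6, Orc4, Orc3, Orc2, Orc5, Orc1 held in 5 libraries, and in WT 3 Orc5 (21.7) stood above Orc2 (16.5). Summed over the 6 genes the complex was at 180 to 198 RPKM in every library.

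The licensing factors Cdc6 and Cdt1 bring MCM to ORC, and geminin, the product of Gmnn, binds Cdt1 and blocks relicensing. Cdt1 was at 7.79, 9.47 and 4.13 RPKM in WT and 8.77, 9.43 and 6.91 in KI, a difference of 0.26 (SE 0.29, limma adjusted p = 0.999). Without WT 3 the difference was -0.04, and with both WT 3 and KI 2 left out -0.13. Cdc6 ran from 15.4 to 22.8 RPKM in 5 libraries and was at 8.84 in WT 3. Gmnn went the other way in WT 3: it was at 156, 147 and 214 RPKM in WT and 163, 198 and 156 in KI, with equal group means of 172 ± 36.4 and 172 ± 22.8 (SD, n = 3 each). Gmnn stood 15.5 to 22.6 times above Cdt1 per length in 5 libraries and 51.8 times above it in WT 3.

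The MCM helicase genes had the highest median KI minus WT difference of the 9 roles, and without WT 3 each of the 6 differences was at or below 0.06. MCM is a ring of 6 related ATPases, encoded by Mcm2 to Mcm7, that unwinds the parental strands. Mcm6, the most abundant on average, was at 147, 151 and 62.5 RPKM in WT and 153, 127 and 160.5 in KI. Mcm7 was at 85.2, 86.1 and 37.6 in WT and 91.6, 80.2 and 97.0 in KI. In both genes WT 3 was lowest and KI 2 second lowest, and KI 2 lay below WT 1 and WT 2, so the groups overlapped. Mcm5 was at 70.8, 70.6 and 17.5 RPKM in WT and 72.4, 54.9 and 73.1 in KI. Mcm2 was at 23.6, 26.9 and 6.40 in WT and 25.4, 17.1 and 24.8 in KI, and Mcm3 was at 75.0, 81.8 and 28.3 in WT and 77.3, 58.1 and 80.0 in KI. The 4 libraries other than WT 3 and KI 2 lay close together in each of these genes.

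All 6 MCM differences were positive, with a median of 0.41, and 0 passed. The difference of Mcm5 was 0.56 (SE 0.51, 95% interval -0.63 to 1.75), that of Mcm7 0.45 (SE 0.32, -0.30 to 1.20) and that of Mcm4 0.16 (SE 0.19, -0.29 to 0.61), each with limma adjusted p = 0.999. Without WT 3 those of Mcm2, Mcm3, Mcm5 and Mcm6 turned to -0.18, -0.14, -0.09 and -0.03, and Mcm7 stood at 0.06. With WT 3 and KI 2 both left out the median over the 6 genes was 0.03 and their median coefficient of variation 3.77%. In WT 3 the ratio to the median of the other 5 libraries was 0.26, 0.37, 0.66, 0.25, 0.41 and 0.44 for Mcm2 to Mcm7, so all 6 were below 0.67, as were 40.9% of all tested genes. In KI 2 it ran from 0.69 to 0.93.

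**Figure D2:**
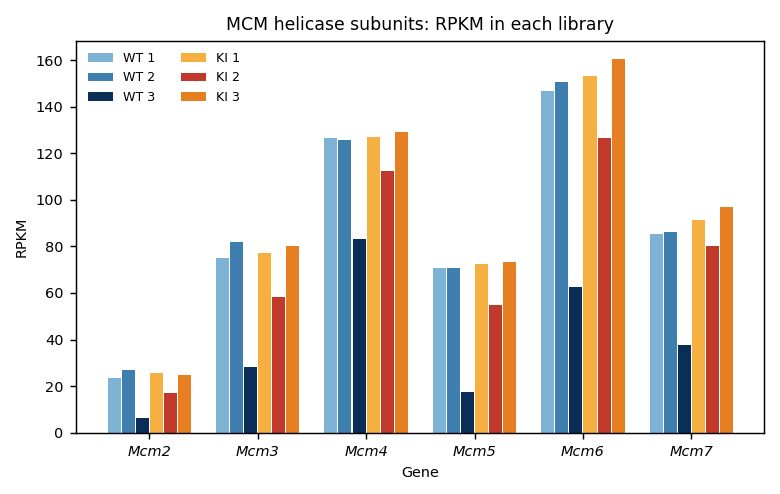
RPKM of the 6 MCM helicase genes, with a bar for each library. In each gene the WT 3 bar is the lowest and the KI 2 bar the second lowest, and the other 4 bars are nearly level.

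The ring subunits stood in other proportions in WT 3. Mcm6, Mcm4, Mcm7, Mcm3, Mcm5, Mcm2 was the order of RPKM in the 5 other libraries, while Mcm4 (83.3) led Mcm6 (62.5) in WT 3. Mcm4 made up 22.9% to 25.0% of the summed RPKM of the ring genes in those 5 libraries and 35.4% in WT 3. Mcm5 made up 12.2% to 13.4% and, in WT 3, 7.45%. The ratio of Mcm4 to Mcm2 was 4.68 to 6.56 in the 5 libraries and 13.01 in WT 3, and the sum over the ring was 449 to 565 RPKM against 236.

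The MCM promoters are shown because these genes are classical E2F targets. All 6 were lowest in WT 3, as were 51.9% of all tested genes, and the part of E2F in this was not tested. The sequences are RefSeq promoter windows of build GRCm38.p6, from 250 bases before to 50 after an annotated start, written 5′ to 3′ on the gene's strand. Capitals mark matches, on either strand, to the E2F-type letters TTTGGCGC, TTTGCCGC, TTTCGCGC or TTTCCCGC, which may overlap.
Mcm3, chr1:20820263-20820562, minus strand: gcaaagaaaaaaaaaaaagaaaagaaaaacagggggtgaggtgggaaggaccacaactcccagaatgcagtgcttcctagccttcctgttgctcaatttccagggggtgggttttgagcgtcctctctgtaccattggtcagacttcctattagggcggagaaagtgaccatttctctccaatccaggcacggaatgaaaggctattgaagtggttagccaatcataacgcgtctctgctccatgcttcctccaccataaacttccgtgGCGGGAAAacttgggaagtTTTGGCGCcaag
Mcm5, chr8:75109259-75109558, plus strand: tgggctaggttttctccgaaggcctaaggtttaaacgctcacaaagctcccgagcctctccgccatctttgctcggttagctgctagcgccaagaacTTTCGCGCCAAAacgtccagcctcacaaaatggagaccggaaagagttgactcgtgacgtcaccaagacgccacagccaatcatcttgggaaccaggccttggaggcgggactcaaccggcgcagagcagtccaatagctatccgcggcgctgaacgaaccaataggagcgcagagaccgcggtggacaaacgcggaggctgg
Mcm6, chr1:128359656-128359955, minus strand: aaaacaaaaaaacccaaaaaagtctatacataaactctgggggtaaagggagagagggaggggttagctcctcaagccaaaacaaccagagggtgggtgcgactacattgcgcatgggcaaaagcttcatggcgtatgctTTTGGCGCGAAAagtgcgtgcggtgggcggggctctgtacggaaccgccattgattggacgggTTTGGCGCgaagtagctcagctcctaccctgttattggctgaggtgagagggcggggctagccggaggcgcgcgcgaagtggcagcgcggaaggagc
Mcm7, chr5:138171834-138172133, minus strand: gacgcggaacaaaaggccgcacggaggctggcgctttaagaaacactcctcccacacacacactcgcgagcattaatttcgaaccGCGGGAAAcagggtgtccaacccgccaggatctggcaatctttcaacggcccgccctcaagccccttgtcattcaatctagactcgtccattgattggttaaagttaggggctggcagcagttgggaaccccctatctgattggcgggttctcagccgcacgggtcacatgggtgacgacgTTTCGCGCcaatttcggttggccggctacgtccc
Mcm6 held 3 matches, of which those at -110 and -106 from the start overlap, and another at -47. Mcm5 held an overlapping pair at -153 and -149. Mcm3 held matches at 20 and 39 after the start, and Mcm7 at -165 and 17. The Mcm2 window held none, and Mcm2 had a ratio of 0.26 in WT 3. Another Mcm7 window, at a different annotated start, also held none, and no window was matched for Mcm4.

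Shorter stretches around the match show the same letters in genes of other roles, for origin licensing (Orc1, Cdc6, Cdt1), strand synthesis (Pola1, Pole2) and clamp loading (Rfc3).
Orc1, chr4:108579411-108579450, plus strand: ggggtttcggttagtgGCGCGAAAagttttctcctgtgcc
Cdc6, chr11:98907997-98908036, plus strand: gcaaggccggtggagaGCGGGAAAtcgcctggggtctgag
Cdt1, chr8:122568031-122568064, plus strand: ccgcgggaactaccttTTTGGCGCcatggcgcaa
Pola1, chrX:93632270-93632309, minus strand: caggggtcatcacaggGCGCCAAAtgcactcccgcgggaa
Pole2, chr12:69228157-69228196, minus strand: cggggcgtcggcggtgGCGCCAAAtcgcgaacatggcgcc
Rfc3, chr5:151651185-151651234, minus strand: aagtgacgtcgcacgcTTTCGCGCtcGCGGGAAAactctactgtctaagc
Promoter windows were matched by symbol for 35 of the 43 members. Of these, 14 (40.0%) held at least 1 match, where 2.61% of all 27025 symbols with a window did. The 14 were Orc1, Orc3, Cdc6, Cdt1, Mcm3, Mcm5, Mcm6, Mcm7, Gins3, Pola1, Pold1, Pole2, Rfc3 and Lig1. Their median KI minus WT difference was 0.22, against 0.05 for the 21 without a match, but without WT 3 the medians were -0.06 and -0.02, and with WT 3 and KI 2 both left out 0.02 and -0.0066. In WT 3 their median ratio to the other libraries was 0.487 against 0.841, and their median GC content was 48.5% against 46.5%. The part of GC content in this contrast was not tested. A match is a string of letters and was not tested as a binding site. The absence of these letters from a window says nothing of more distant sites.

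Of the 6 helicase activation genes 0 were called, with 2 positive and 4 negative differences. Mcm10, which helps to start the assembled helicase, was at 11.3, 11.9 and 4.85 RPKM in WT and 12.4, 8.43 and 11.8 in KI, a difference of 0.27 (SE 0.33, limma adjusted p = 0.999). Without WT 3 it was -0.10. Gins4, the most abundant GINS transcript on average, was at 110.0, 104 and 98.6 in WT and 90.6, 94.2 and 112 in KI, and its groups overlapped. Gins1 was at 101 in WT 3 and 59.1 to 68.8 elsewhere, and in WT 3 it stood above Gins4. Cdc45 ran from 30.7 to 42.2, Gins2 from 31.2 to 39.6 and Gins3 from 15.3 to 21.6. In the reference annotation 67.3% of the Gins2 exon bases lie opposite exons of Gse1, and no source used here says whether counting used strand, so the Gins2 value is uncertain.

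Of the 8 primase and polymerase genes 0 were called, and 6 were lowest in WT 3 and 2 highest there. Pola2, the regulatory subunit of polymerase alpha, was at 7.503, 9.19 and 1.99 RPKM in WT and 8.55, 5.63 and 7.55 in KI. Pold1, the catalytic subunit of polymerase delta, was at 8.87, 9.16 and 2.17 in WT and 8.91, 6.37 and 8.89 in KI. Both were lowest in WT 3 and next lowest in KI 2, with ratios to the other libraries of 0.26 and 0.24 in WT 3. Pold2, the delta subunit with the highest level here, was at 59.3, 55.4 and 26.5 in WT and 62.9, 54.1 and 60.6 in KI, a difference of 0.41 (SE 0.30, 95% interval -0.30 to 1.11, limma adjusted p = 0.999). Without WT 3 it was 0.04.

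Prim1, the catalytic primase subunit, hardly varied, at 47.8 to 53.9 RPKM over all 6 libraries. Prim2, its partner, was at 44.7 in WT 3 and 26.7 to 34.1 elsewhere. Pole2 was likewise highest in WT 3, at 24.8 against 16.9 to 18.9, while its catalytic partner Pole was lowest there, at 4.31 against 6.40 to 8.86. The ratio of Prim1 to Pola2 was 5.25 to 8.98 in 5 libraries and 24.0 in WT 3. X-linked Pola1, the catalytic subunit of polymerase alpha, was at 25.0, 27.5 and 23.1 in WT and 29.1, 27.0 and 29.6 in KI, a difference of 0.18 (95% interval -0.17 to 0.52). Only KI 2, which had the highest Y-linked sum of the KI libraries, fell inside the WT range, and the part of sex in this was not tested.

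The clamp loader, replication factor C, opens the PCNA ring and places it on DNA. Rfc1, its large subunit, was the only member whose groups did not overlap, a case that held for 6.54% of all tested genes. It was at 23.1, 25.0 and 23.2 RPKM in WT and 26.2, 27.3 and 26.0 in KI. The difference was 0.15 (SE 0.14, limma adjusted p = 0.999), and 3.8% of all tested genes had every KI value above every WT value (2.74% every value below, with 0 members). After a correction for GC content and length, or median-ratio or quantile scaling, the Rfc1 groups overlapped. With that correction the groups of 5 other members did not overlap, against 7.95% of genes. Rfc5 was at 46.8, 44.1 and 30.7 in WT and 47.9, 43.5 and 51.8 in KI, a difference of 0.25 (SE 0.19, adjusted p = 0.999) that was 0.07 without WT 3. Rfc4, the most abundant loader subunit, was at 227, 231 and 349 in WT and 214, 278 and 239 in KI, highest in WT 3 and next in KI 2. Pcna followed the same library order, at 214 in WT 3, 195 in KI 2 and 160.2 to 174 in the others. Rfc2 ran from 53.4 to 61.9 and Rfc3 from 52.4 to 63.8.

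Replication protein A coats the unwound single strands as a trimer. In both WT 3 and KI 2, Rpa1 was low and Rpa3 high. Rpa1, the large subunit, was at 50.7, 53.6 and 17.5 RPKM in WT and 48.9, 33.9 and 55.9 in KI. Rpa3, the small subunit, was at 98.6, 94.996 and 160.5 in WT and 94.7, 126 and 83.9 in KI. Rpa2 was at 126, 115 and 128 in WT and 116, 104 and 134 in KI. Rpa1 made up 5.71% of the summed RPKM of the trimer genes in WT 3 and 12.9% in KI 2, against 18.4% to 20.4% in the other 4 libraries. None was called, with differences of 0.31, -0.07 and -0.19 for Rpa1, Rpa2 and Rpa3, and without WT 3 that of Rpa1 was -0.20.

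Okazaki fragments are trimmed by the flap nuclease Fen1 and sealed by DNA ligase 1. Lig1 was at 28.8, 30.5 and 22.6 RPKM in WT and 32.8, 32.0 and 28.8 in KI, a difference of 0.20 (SE 0.17, limma adjusted p = 0.999). WT 2 lay above KI 3, so the groups overlapped. The difference was 0.07 without WT 3 and 0.04 with the GC and length correction. Fen1 was the lowest member by far, at 1.86, 1.43 and 1.07 in WT and 2.08, 1.06 and 1.07 in KI, from 25 to 60 reads per library. In the reference annotation 84.2% of its exon bases are shared with exons of Tmem258 or Gm10143 on the opposite strand, the highest share of any member. Counting rules can discard or misassign such reads, so the Fen1 level is uncertain.

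Deoxynucleotide supply rests on ribonucleotide reductase, of Rrm1 and Rrm2 subunits, and on thymidylate synthase, Tyms. Rrm2, whose protein is limiting for the enzyme in S phase, had the highest mean of all members. It was at 371, 388 and 166 RPKM in WT and 383, 426 and 347 in KI, a difference of 0.41 (SE 0.32, 95% interval -0.34 to 1.16, limma adjusted p = 0.999). Without WT 3 it was 0.02, and with WT 3 and KI 2 both left out -0.06. KI 2 was the highest library for Rrm2 but the second lowest for Rrm1 (26.7, with 20.8 in WT 3 and 31.5 to 35.7 elsewhere). The ratio of Rrm2 to Rrm1 was thus 15.95 in KI 2, 7.99 in WT 3 and 9.74 to 12.1 in the other libraries. Tyms was among the steadiest members, at 55.4 to 63.6 RPKM.

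**Figure D3:**
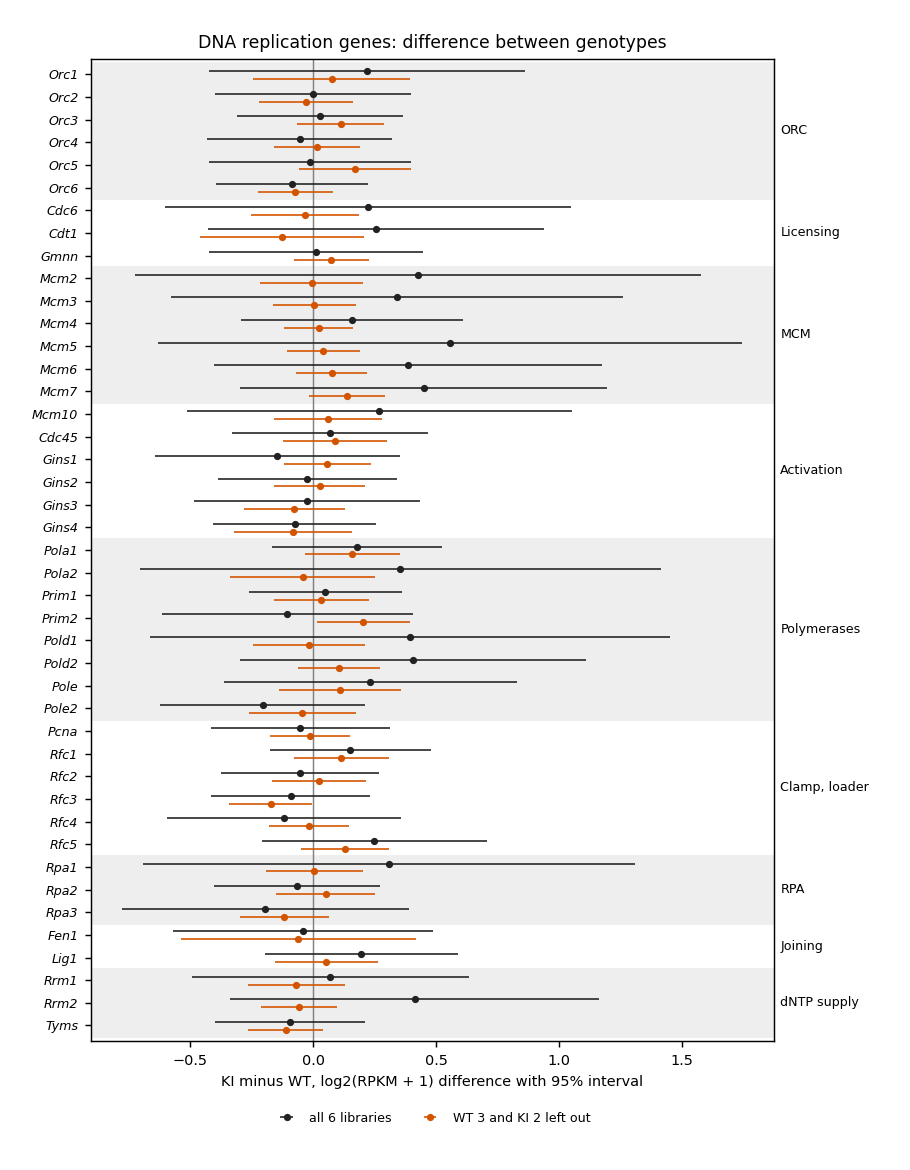
KI minus WT difference on the log2(RPKM + 1) scale for each member, with its 95% interval, in all 6 libraries (black) and with WT 3 and KI 2 left out (orange). With all libraries every interval includes 0, and those of Mcm5, Mcm2, Pola2 and Pold1 are the 4 widest, while the 4-library differences lie between -0.17 and 0.20.

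Leaving out WT 3 and KI 2 left 2 WT and 2 KI libraries. In that fit 0 members and 0.406% of all tested genes passed. Prim2 (difference 0.20, 95% interval 0.01 to 0.39) and Rfc3 (-0.17, -0.34 to -0.0037) had an unadjusted p under 0.05, with adjusted p = 0.396 and 0.414 by limma, against 11.6% of all tested genes at that level. The groups did not overlap for 12 members higher and 5 lower in KI, or 17 of 43 in all. Of all tested genes 18.6% were higher and 24.3% lower in this way, or 42.9% together. With a single library left out, the groups did not overlap for 2, 3 and 4 members without WT 1, 2 and 3, against 10.5%, 13.1% and 23.1% of all tested genes. Without KI 1, 2 and 3 it was 2, 12 and 3 members, against 10.6%, 18.6% and 16.6%. With median-ratio scaling it was 3 members, against 7.49%. With each library weighted by its spread, 0 members and 0.92% of genes were called. The weights were 0.695, 3.415 and 0.110 for WT 1, 2 and 3 and 7.75, 0.395 and 1.25 for KI 1, 2 and 3. WT 2 and KI 1 thus counted most in their groups.

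WT 3 was the lowest library for 25 of 43 members (58.1%) and for 51.9% of all tested genes. It was the highest for 11 members (25.6%), against 19.4% of all tested genes. The 18 members below 0.67 of the other libraries in WT 3 had a median transcript GC content of 49.9%, and the 25 others 45.4%. Members over 1.5 in WT 3 were Gins1, Prim2, Rfc4 and Rpa3, with exon lengths of 1516, 5938, 1533 and 1136 bases. Their median was 1524.5, against 3993 for all members, and Prim2 lay above the latter. For the correlations that follow, 1 was added to both RPKM values of each ratio. Across the 43 members the WT 3 ratio had a Spearman's rho of -0.54 with GC content and -0.34 with exon length, and across 9920 tested genes rho was -0.46 and -0.08. In KI 2 the rho values across members were -0.28 for GC content and -0.45 for length, and across the 9920 tested genes -0.07 and 0.04. These correlations are across genes of the same libraries, which are not independent replicates. The part of base composition or length in the differences between libraries was not tested.

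**Figure D4:**
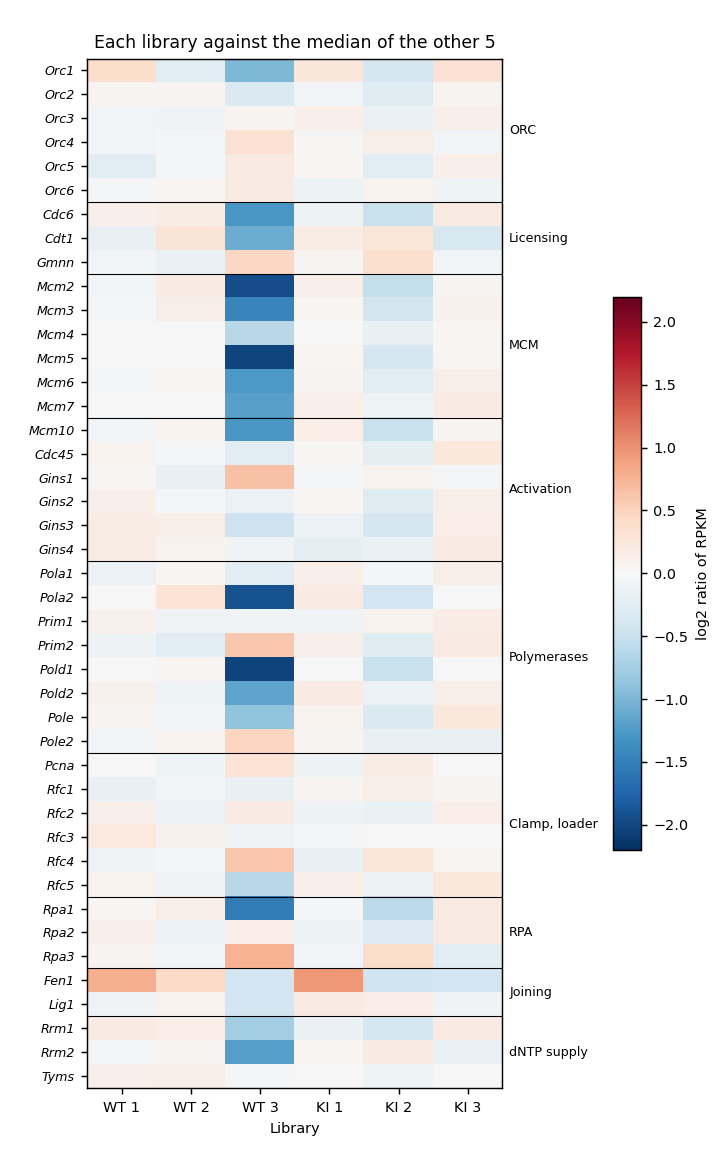
Log2 ratio of RPKM in each library (columns) to the median of the other 5, for the 43 members (rows, by role), with blue lower and red higher. The WT 3 column is the most uneven, blue for the MCM genes, Pola2, Pold1 and Rpa1 and red for Rpa3, Gins1 and Rfc4, with fainter blue in KI 2. The red Fen1 cells rest on at most 60 reads.

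**Figure D5:**
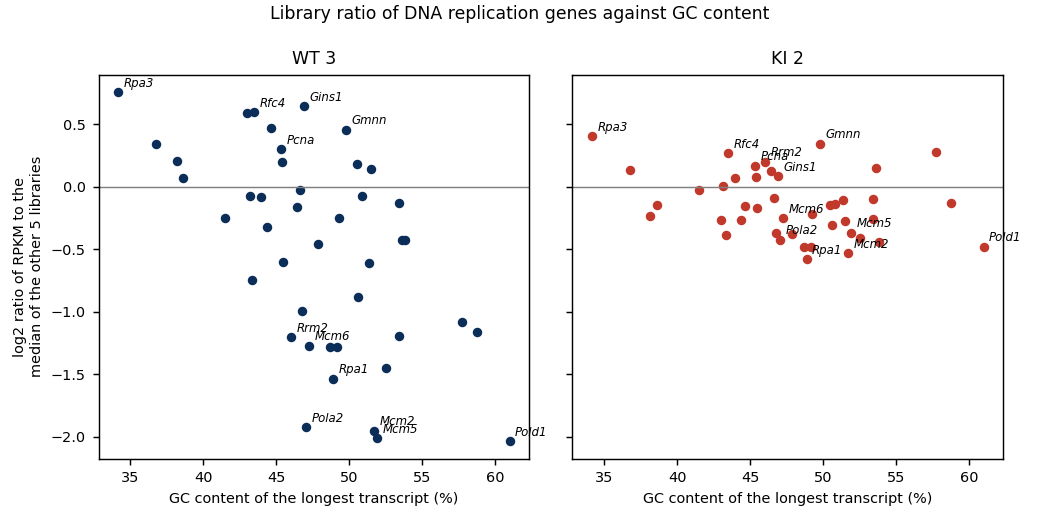
Log2 ratio of RPKM in WT 3 (left) and KI 2 (right) to the median of the other 5 libraries against the GC content of the longest transcript, with a point for each member. In WT 3 the points slope down from Rpa3 at the left to Pold1 at the right, and the spread in KI 2 is narrower. The rho of -0.54 for WT 3 was computed with 1 added to both RPKM values, unlike the points.

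Other genes of the replication fork were not called either. Of 34 listed, 32 were tested and 0 were called in either direction, with a median difference of 0.06. Tipin, a fork protection factor, was at 230 ± 42.1 RPKM in WT and 220 ± 22.2 in KI (SD, n = 3 each). Pclaf, a PCNA-binding protein gene, was at 170 ± 22.6 and 170 ± 37.9. Mcmbp, which binds MCM proteins, was at 184 in WT 3 and 71.5 to 124 elsewhere, so WT 3 was its highest library. Among 12 other deoxynucleotide genes 10 were tested and 0 called (median difference 0.12), with Dtymk, thymidylate kinase, at 117 ± 18.1 in WT and 100 ± 7.58 in KI.

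No gene of the cell cycle lists was called with all 6 libraries. Of 30 G1/S regulators 26 were tested and 0 called, with 20 positive differences and a median of 0.05. Cdk4, the cyclin D partner kinase, was at 386, 392.5 and 192 RPKM in WT and 371, 377 and 384 in KI, again low in WT 3 alone. Ccnd1, a cyclin that drives G1, was at 17.7, 18.5 and 4.62 in WT and 10.5, 15.2 and 11.8 in KI, and was the only gene of these lists called with WT 3 and KI 2 left out, as lower. Genotype and Y-linked level cannot be told apart in that setting. All 20 mitosis genes were tested and 0 were called, with 9 positive differences and a median of -0.03. Ccnb2, a mitotic cyclin, was at 232, 209 and 243 in WT and 253, 247 and 253 in KI, so its groups did not overlap (difference not called, limma adjusted p = 0.999). It was the only such mitosis gene. The groups also did not overlap for E2f7 of the G1/S regulators (higher in KI) and Nme1 of the deoxynucleotide genes (lower in KI). Such separation held for 6.54% of all tested genes. WT 3 was below 0.67 of the other libraries for 5 of 20 mitosis genes, 10 of 32 other fork genes, 13 of 26 G1/S regulators and 18 of 43 members (41.9%), where 40.9% of all tested genes were.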

How the data were processed

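RNA from 3 WT and 3 KI libraries was captured on oligo(dT) beads and prepared with a SMARTER mRNA-seq kit, per the labels' protocols. Per the submitters' processing notes reads were placed on GRCm39. No source used here gives the aligner, counting tool, annotation or use of strand. The deposited values are RPKM, judged from the values: multiplied by merged GENCODE M21 exon lengths they were whole multiples of 1 step in 97.9% to 98.0% of nonzero values under 2000 reads (within 0.05), which gave depth and reads. Intervals from reads would cover counting error only. Duplicate rows of 20 symbols were reduced to the row of highest mean level.

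KI was tested against WT across the whole table, for genes reaching 1 RPKM in 3 or more libraries, with limma 3.58.1 (R 4.3.3; mean-variance trend, robust prior) on log2(RPKM + 1), which understates changes of low genes. The pipeline was checked on simulated data with known answers. These had a fixed small spread and no library that stood apart, so the check does not show the power in the real libraries. Benjamini-Hochberg adjustment ran over 10104 genes, threshold 0.05. Alternatives were other scalings, a pseudocount of 0.1, other filters (none, or 5 RPKM), voom, library weights, leaving out libraries, the replicate block, and, added after seeing the data, a GC and length correction. Numbers in the labels did not pair libraries. The members and lists were chosen with earlier results of these data known. Values in every library are given for the most abundant member and the member with the smallest p of each role, any member with separated groups and the 6 widest ranges; others were named after their values were seen. Promoter windows came from RefSeq (GRCm38.p6), and GENCODE M21 is also on GRCm38, so no GRCm39 coordinates are given. Protein sequences were not used here.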

Additional observations from a re-analysis of the deposited data

How the results depend on the processing

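No member was called under any of the 16 alternatives (smallest adjusted p = 0.362 by limma). All genes called rose from 0 to 93 with library weights and to 41 with WT 3 and KI 2 both left out. KI 1 and WT 2 had the highest weights in the former fit. Genotype and Y-linked level cannot be told apart in the latter. Members with separated groups numbered 1 (6.54% of all tested genes), and 3 with median-ratio scaling (7.49%), 5 with the GC and length correction (7.95%), 17 with WT 3 and KI 2 both left out (42.9%), and 2 to 12 when a single library was left out (10.5% to 23.1%; the 12, without KI 2, stood against 18.6%). Of 351 values of the 22 members named by the rule, 318 kept their direction and 33 turned, and the cause was not tested. The replicate block and the other filters leave a gene's difference unchanged, so values under them could not turn. In any alternative, 16 of the 22 named members turned, and 33 of all 43 members did. The differences below are KI minus WT on the log2(RPKM + 1) scale. Those that turned with library weights were Cdt1 (-0.0678), Mcm2 (-0.0267), Mcm3 (-0.0324), Pola2 (-0.0474), Pold1 (-0.0034), Rpa1 (-0.0715) and Rpa2 (0.0078). With WT 3 and KI 2 both left out Cdt1 (-0.13), Mcm2 (-0.0066), Pola2 (-0.0426), Pold1 (-0.016), Rpa2 (0.0508) and Rrm2 (-0.0577) turned. Gmnn turned with median-ratio scaling (-0.0666), and Gins4 (0.013), Rfc4 (0.0613) and Rpa3 (0.10) with the GC and length correction. With a single library left out the ranges were -0.0415 to 0.44 for Orc1, -0.0444 to 0.47 for Cdt1, -0.0929 to 0.18 for Gmnn, -0.18 to 0.77 for Mcm2, -0.14 to 0.61 for Mcm3, -0.0926 to 0.88 for Mcm5, -0.0270 to 0.60 for Mcm6, -0.10 to 0.47 for Mcm10, -0.19 to 0.69 for Pola2, -0.16 to 0.68 for Pold1, -0.23 to 0.0817 for Rfc4, -0.20 to 0.58 for Rpa1, -0.16 to 0.0206 for Rpa2 and -0.36 to 0.0468 for Rpa3. Except for Gmnn and Rpa2, the turn came without WT 3.

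The replicate numbers did not pair libraries: same-numbered deviations correlated at 0.124, -0.0507 and 0.0054. With the replicate block 0 members were called. The median difference over members stayed at 0.07, which the block could not change in this balanced design. Over the alternatives this median ran from -0.03 without WT 3 to 0.13 without WT 1 or KI 2. For Fen1, at 25 to 60 reads, depth limits the value.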
